A study of Rattus norvegicus with 6 samples.

Results

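The miR-130 and miR-301 family of the rat lens capsule was followed across 6 small RNA libraries. Its members were the names rno-miR-130a, rno-miR-130b, rno-miR-301a and rno-miR-301b of the miRNA count table, with both arms, and 8 such names were listed among 910. The family was chosen by the higher level of miR-130b-5p in treated animals, and its members by name, so all differences between the groups are given for its members as a description, without a p-value. Counts were found for 7 of the 8 names, and 3 of the 8 (miR-130a-3p, miR-130b-5p and miR-301a-5p) had enough reads to enter the fit over 341 miRNAs.

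The libraries came from the lens capsules of Sprague-Dawley rat pups, 8 days old when the model was set up, with 1 lens from each of 3 rats in each group. Pups of the Na2SeO3 group were given sodium selenite under the skin of the neck at 20 μmol/kg on days 3, 5 and 7, and pups of the control group were given saline on the same days. Lenses were taken on day 15. How these days relate to the age of the pups is not clear from the sources used here. The model is one of cataract in young animals after a chemical injury, and cells of the whole capsule preparation were read together, so that fewer cells of a type and less RNA per cell cannot be told apart.

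A miRNA gene is transcribed into a hairpin, from which a 5p arm and a 3p arm of about equal length are cut. Usually only one of them is loaded into Argonaute as the guide strand, while the other, the passenger strand, is degraded. The guide finds its targets mainly through its seed, which is bases 2 to 8. In the miR-130 and miR-301 family the 3p arm is usually the guide, and its members are known as repressors of PPARγ in fat cell precursors and as miRNAs of blood vessel and blood-forming cells.

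The mature sequences show which members could act on the same targets. They were taken from RefSeq (assembly GRCr8), which held 7 of the 8 names, all except rno-miR-301a-3p, and are written 5′ to 3′ with the seed in capitals.
rno-miR-130a-3p: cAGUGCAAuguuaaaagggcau
rno-miR-130b-3p: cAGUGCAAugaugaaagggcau
rno-miR-301b-3p: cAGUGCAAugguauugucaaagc
rno-miR-130a-5p: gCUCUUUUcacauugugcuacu
rno-miR-130b-5p: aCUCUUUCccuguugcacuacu
rno-miR-301a-5p: gCUCUGACuuuauugcacuac
rno-miR-301b-5p: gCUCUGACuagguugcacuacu

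The 3p arms shown shared 1 seed, and no other mature sequence of the RefSeq table held it. The 5p arms fell into 3 seeds. That of miR-130b-5p and that of miR-130a-5p were each their own, and miR-301a-5p and miR-301b-5p had the same one. Counted from base 1 without gaps, miR-130a-3p and miR-130b-3p differed at 2 of 22 bases, whereas miR-130b-3p and miR-301b-3p differed at 10 of 22. Among the 5p arms, miR-130b-5p differed from miR-130a-5p at 7 of 22 bases and from miR-301b-5p at 6 of 22. How reads that could belong to more than 1 member were divided is not given in the sources used here, and its part in the counts was not tested.

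The hairpins of the 2 neighbouring genes show where the arms lie, with both mature arms in capitals.
Mir130b: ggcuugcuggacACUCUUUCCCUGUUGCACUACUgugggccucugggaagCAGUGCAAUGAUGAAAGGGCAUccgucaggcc
Mir301b: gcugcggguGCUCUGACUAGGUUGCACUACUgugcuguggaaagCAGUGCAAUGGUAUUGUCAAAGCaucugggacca

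In the RefSeq annotation of GRCr8, Mir301b lies directly before Mir130b on the same strand, and the protein-coding gene 2610318N02Rikl spans both. Mir301a lies within the spans of Prr11 and Ska2, whereas Mir130a lies in no other gene, with Ypel4 on one side. The letters UUGCACU, the complement of the 3p seed read backwards, were searched on the given strand of the mature sequences. They were held from base 13 by miR-130b-5p, miR-301a-5p and miR-301b-5p, but not by miR-130a-5p, and by 8 (1.15%) of 693 mature sequences. No coordinates are given, because the build behind the count table is not named.

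The counts per library summed to between 1806596 and 2829903 in the control group and between 663096 and 968151 in the Na2SeO3 group. A name needed 1.06 to 1.66 CPM (the usual per-million unit, scaled by library total) in a control library, or 3.10 to 4.52 CPM in a Na2SeO3 library, to reach 3 counts, and this covers counting error only. Of the raw reads the study lists per library, 25.6% to 39.7% were counted on miRNA names in the control group and 11.4% to 13.0% in the Na2SeO3 group, so the choice of scale moves every miRNA. Unless stated otherwise, levels are CPM after TMM scaling, which assumes that most miRNAs do not differ. The median log2 fold change over the miRNAs tested was 0.08 on this scale and -1.07 per raw read.

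The family made up a small part of the lens capsule miRNAs. In the control group miR-130a-3p was its leading arm at 47.8 ± 6.03 CPM (SD, n = 3), rank 214 of the 341 miRNAs tested. It was followed by miR-301a-5p at 11.9 ± 1.45 CPM and miR-130b-5p at 8.48 ± 2.71 CPM (SD, n = 3 each), whose ranges, 10.9 to 13.6 and 5.53 to 10.9 CPM, met at the edge. The ranges of miR-130a-5p (3.11 to 6.72 CPM), miR-301a-3p (1.03 to 6.47 CPM) and miR-130b-3p (1.04 to 5.18 CPM) overlapped one another, so their order was not resolved. miR-301b-5p, at 0.52 to 1.29 CPM, reached just into the lower ends of the last 2. The arms are 21 to 23 bases long, so a correction for length would change little, but ligation favours some ends over others and levels of different miRNAs are only roughly comparable.

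**Figure D1:**
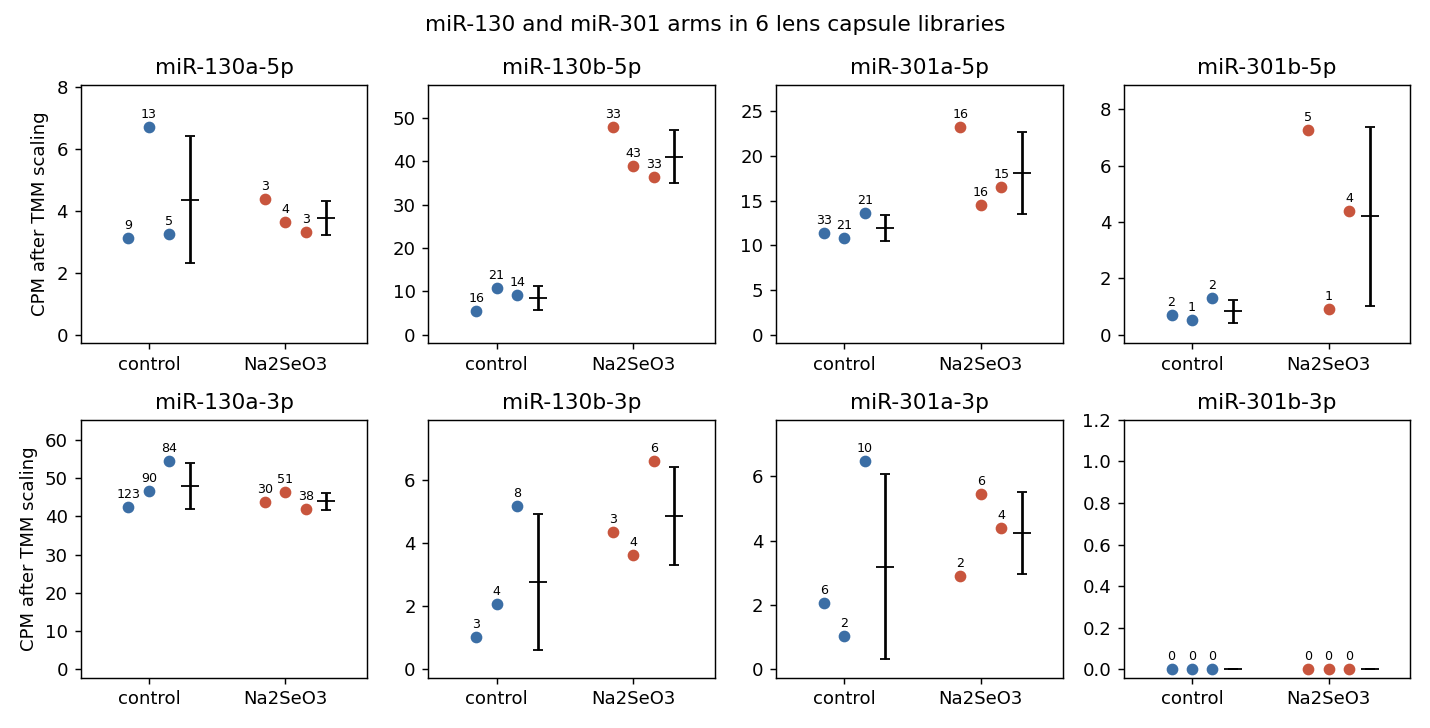
Level of each of the 8 arms (y axis, CPM after TMM scaling, a separate scale per panel) in the control and Na2SeO3 groups. Points are libraries 1 to 3 from left to right with their read counts, and the bar beside them is the mean ± SD; only miR-130b-5p and miR-301a-5p have groups that do not overlap.

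The arm by which the family was chosen, miR-130b-5p, was counted 16, 21 and 14 times in control libraries 1 to 3 and 33, 43 and 33 times in Na2SeO3 libraries 1 to 3, which held fewer counts on miRNA names in total. Its level was 5.53, 10.9 and 9.06 CPM in the control libraries and 48.1, 39.0 and 36.3 CPM in the Na2SeO3 libraries. Every Na2SeO3 library thus lay above every control library, and the spread within a group was small beside the gap. Mean levels were 8.48 ± 2.71 and 41.1 ± 6.15 CPM (SD, n = 3 each), and the fitted difference was 4.91-fold (log2 fold change 2.30, standard error 0.31, edgeR's quasi-likelihood fit). This was the fifth largest log2 fold change of the 341 miRNAs tested (rank 5), and the arm moved from rank 317 by level in the control group to rank 229 in the Na2SeO3 group. Per raw read the log2 fold change was 1.20 (standard error 0.47), and the groups again did not overlap, with 1.98 to 2.66 CPM of raw reads in the control group and 4.42 to 5.79 in the Na2SeO3 group.

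By the study's thresholds (adjusted p 0.05, log2 fold change past 1 or -1), 1 of the 3 members tested was a DEmiRNA, the one by which the family was chosen. Among all miRNAs tested, 16.4% were called in either direction and 11.4% as higher in the Na2SeO3 group. In 2 of the 3 members tested the groups did not overlap, with the Na2SeO3 group higher, as in 25.2% of all miRNAs tested, and the groups did not overlap in either direction in 46.3%. These counts rest on the contrast that led to the family, so nothing is read from them.

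**Figure D2:**
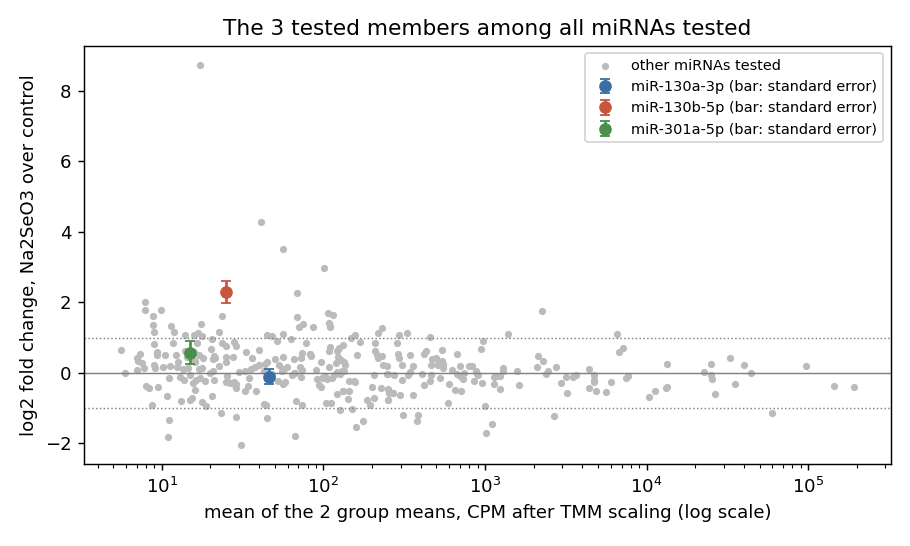
Log2 fold change of Na2SeO3 over control (y axis) against the mean of both group means (x axis, CPM after TMM scaling, log scale) for the 341 miRNAs tested, with the thresholds of 1 and -1 as dotted lines. The tested members are coloured with their standard errors: miR-130b-5p lies at 2.30, miR-301a-5p at 0.58 and miR-130a-3p at -0.11.

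The 3p arm of the same hairpin, miR-130b-3p, bears on whether the difference is shared by the usual guide strand. It was counted 3, 4 and 8 times in control libraries 1 to 3 and 3, 4 and 6 times in Na2SeO3 libraries 1 to 3. Its level was 1.04, 2.07 and 5.18 CPM in the control libraries and 4.37, 3.63 and 6.60 CPM in the Na2SeO3 libraries. The groups overlapped, because control library 3 stood above 2 of the Na2SeO3 libraries. Mean levels were 2.76 ± 2.16 and 4.87 ± 1.55 CPM (SD, n = 3 each), and a fit without the filter on low counts gave a log2 fold change of 0.79 with a standard error of 0.81. Summed over a group, 15 reads of 6712188 were 2.23 CPM of the summed counts (95% exact Poisson interval 1.25 to 3.69) in the control group, and 13 of 2509024 were 5.18 CPM (2.76 to 8.86) in the Na2SeO3 group. These intervals cover counting error only and not the spread between animals. At this depth a level of miR-130b-3p like that of the controls could not be told from a difference close to that of the 5p arm.

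Within a library the balance of both arms does not depend on the scale. The 3p arm took 15.8%, 16.0% and 36.4% of the miR-130b reads in control libraries 1 to 3 and 8.33%, 8.51% and 15.4% in Na2SeO3 libraries 1 to 3. The highest of these shares, 8 of 22 reads in control library 3, had a 95% exact binomial interval of 17.2% to 59.3%, and the lowest, 3 of 36 reads in Na2SeO3 library 1, one of 1.75% to 22.5%. The 5p arm therefore led in all 6 libraries, in the control group too. The log2 ratio of 5p to 3p reads, with 0.5 added to each count, was 1.75 ± 0.85 in the control group and 2.97 ± 0.52 in the Na2SeO3 group (SD, n = 3 each), a shift of 1.21 towards the 5p arm. The highest control value, 2.26, lay just below the lowest Na2SeO3 value, 2.37, so the groups were parted by less than their spread. Without control library 3 the shift was 0.72.

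**Figure D3:**
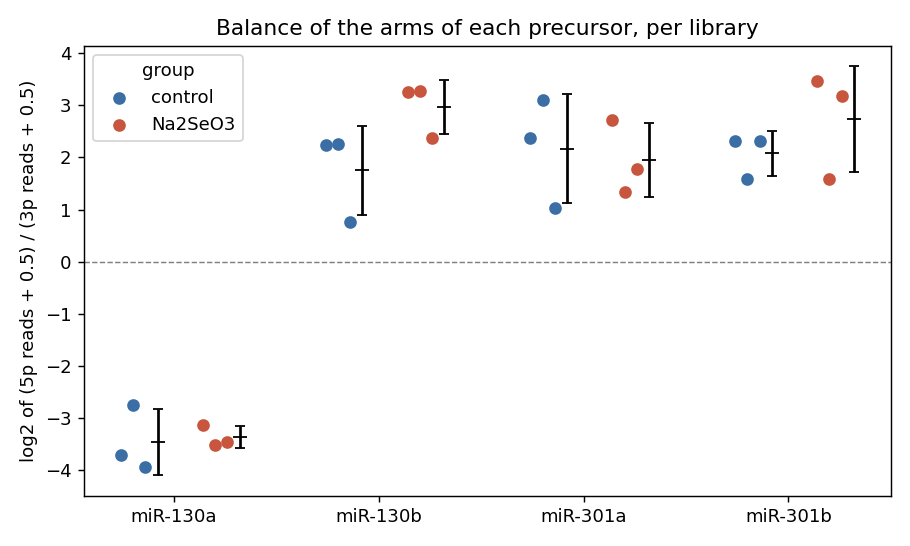
Log2 ratio of 5p to 3p reads with 0.5 added to each (y axis) for the 4 precursors, per library, with control and Na2SeO3 points in different colours and the mean ± SD beside them. Only miR-130a lies below 0, where 3p reads lead; for miR-301b the 3p count is 0 in every library, so its points follow its 5p counts of 1 to 5.

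Over all rat precursors whose arms summed to at least 10 reads in every library, 174 in number, the median shift of this balance was 0.02, and 88 moved towards the 5p arm. The shift of miR-130b ranked 15 among them from the 5p side. The groups did not overlap towards the 5p arm in 13.2% of these precursors and did not overlap in either direction in 25.3%. The 5p arm led in 51.1% of them in the control group, and the leading arm was not the same in both groups in 3 of the 174. In miR-130b it was the same in both.

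The gene next to Mir130b gave few reads. The 5p arm, miR-301b-5p, was counted 2, 1 and 2 times in control libraries 1 to 3 and 5, 1 and 4 times in Na2SeO3 libraries 1 to 3. Its level was 0.69, 0.52 and 1.29 CPM in the control libraries and 7.28, 0.91 and 4.40 CPM in the Na2SeO3 libraries. Na2SeO3 libraries 1 and 3 stood above the controls while library 2 lay among them, so the groups overlapped. Summed over a group, 5 reads were 0.75 CPM of the summed counts (95% exact Poisson interval 0.24 to 1.74) in the control group and 10 reads were 3.99 CPM (1.91 to 7.33) in the Na2SeO3 group, and the fit without the filter gave a log2 fold change of 2.15 with a standard error of 1.11. The Poisson intervals again cover counting error only.

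The 3p arm, miR-301b-3p, was listed at 0 in every library. With 3 counts as the limit that a count of 0 allows, its level could reach 0.447 CPM of the summed counts over the control libraries and 1.20 CPM over the Na2SeO3 libraries, so it was not detected, and no fold is given. The ratio of miR-130b-5p to miR-301b-5p reads within a library was 3.03 ± 0.71 on the log2 scale in the control group and 3.45 ± 1.2 in the Na2SeO3 group (SD, n = 3 each, 0.5 added to each count). Its shift of 0.42 was smaller than the spread in either group, and with 1 library left out it ran from -0.28 (without Na2SeO3 library 2) to 0.84 (without Na2SeO3 library 1), with 0.82 without control library 2, 0.70 without Na2SeO3 library 3, 0.27 without control library 1 and 0.17 without control library 3. The ratio of miR-301b-5p to miR-301a-5p was -3.56 ± 0.4 in the control and -2.28 ± 1.0 in the Na2SeO3 group (SD, n = 3 each). Its shift of 1.29 was larger than either SD. The groups overlapped, since control library 3 was at -3.10 and Na2SeO3 library 2 at -3.46, on 1 to 5 reads of miR-301b-5p. Whether miR-301b-5p differed as miR-130b-5p did was therefore not resolved at this depth.

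Of the genes outside this cluster, Mir130a gave the most reads. The most abundant arm, miR-130a-3p, was counted 123, 90 and 84 times in control libraries 1 to 3 and 30, 51 and 38 times in Na2SeO3 libraries 1 to 3. Its level was 42.5, 46.5 and 54.4 CPM in the control libraries and 43.7, 46.3 and 41.8 CPM in the Na2SeO3 libraries. On the TMM scale these ranges overlapped widely. Mean levels were 47.8 ± 6.03 in the control and 43.9 ± 2.26 CPM in the Na2SeO3 group (SD, n = 3 each). The log2 fold change was -0.11 with a standard error of 0.21, and it was 0.09 with library totals as the only scale. Per raw read miR-130a-3p was at -1.24 (standard error 0.41) where the median of all miRNAs was at -1.07, so relative to that median it stood at -0.17, and at -0.19 on the TMM scale. Per raw read the groups did not overlap. Control libraries held 11.4 to 17.3 CPM of raw reads and Na2SeO3 libraries 5.09 to 6.86.

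The 5p arm of the same gene, miR-130a-5p, was counted 9, 13 and 5 times in control libraries 1 to 3 and 3, 4 and 3 times in Na2SeO3 libraries 1 to 3. These counts gave 3.11 to 6.72 CPM in the control group and 3.30 to 4.37 CPM in the Na2SeO3 group, again with overlap on the TMM scale. Per raw read the groups did not overlap, at 0.709 to 1.65 CPM of raw reads in the control and 0.402 to 0.538 in the Na2SeO3 group. The 3p arm took 91.7% ± 3.74 of the miR-130a reads in the control group and 92.1% ± 1.04 in the Na2SeO3 group (SD, n = 3 each). miR-130a was thus the only one of the 4 genes in which the usual guide strand led in every library, and its balance of arms was close in both groups.

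The 5p arm of miR-301a also outnumbered its 3p arm. It was counted 33, 21 and 21 times in control libraries 1 to 3 and 16, 16 and 15 times in Na2SeO3 libraries 1 to 3. Its level was 11.4, 10.9 and 13.6 CPM in the control libraries and 23.3, 14.5 and 16.5 CPM in the Na2SeO3 libraries. The groups did not overlap on this scale, but Na2SeO3 library 2 lay close to control library 3. Mean levels were 11.9 ± 1.45 in the control and 18.1 ± 4.60 CPM in the Na2SeO3 group (SD, n = 3 each). The log2 fold change was 0.58 with a standard error of 0.32, but it was -0.57 per raw read, where the groups overlapped, and 0.35 on the TMM scale without Na2SeO3 library 1.

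The 3p arm, miR-301a-3p, was counted 6, 2 and 10 times in control libraries 1 to 3 and 2, 6 and 4 times in Na2SeO3 libraries 1 to 3, at 1.03 to 6.47 and 2.91 to 5.45 CPM. It took 18.8% ± 12.2 of the miR-301a reads in the control group and 19.8% ± 8.17 in the Na2SeO3 group (SD, n = 3 each). The shares of single libraries ran from 8.70%, or 2 of 23 reads with a 95% exact binomial interval of 1.07% to 28.0%, to 32.3%, or 10 of 31 reads with an interval of 16.7% to 51.4%. The balance of miR-301a, unlike that of miR-130b, shifted by -0.22, less than the spread in either group.

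Set against the rest of the family, miR-130b-5p took a larger share of its reads in the Na2SeO3 libraries. It made up 8.33%, 13.8% and 9.72% of the family's reads in control libraries 1 to 3, and 35.9%, 34.4% and 32.0% in Na2SeO3 libraries 1 to 3. The highest control share was 21 of 152 reads, with a 95% exact binomial interval of 8.76% to 20.3%, and the lowest Na2SeO3 share was 33 of 103 reads, with an interval of 23.2% to 42.0%. These intervals cover counting error only. The share is free of scaling, but it describes again the arm by which the family was chosen. Because the shares sum to the whole, a larger part for one arm lowers the sum of the others by construction. The share of miR-130a-3p, whose level had a log2 fold change of -0.11, was 60.5% ± 3.12 in the control group and 36.8% ± 4.10 in the Na2SeO3 group (SD, n = 3 each). The share of miR-301a-5p was 15.2% ± 1.78 and 14.9% ± 2.32 (SD, n = 3 each). Those of the other arm and of the cluster neighbour were 3.25% ± 2.07 and 4.10% ± 1.5 for miR-130b-3p and 1.03% ± 0.366 and 3.37% ± 2.36 for miR-301b-5p (SD, n = 3 each), and in both the groups overlapped.

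**Figure D4:**
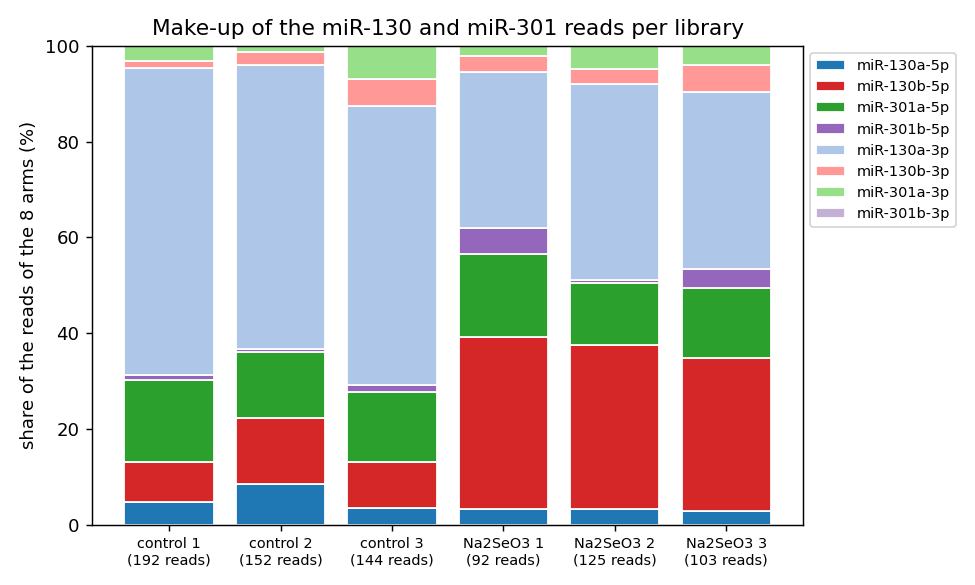
Share of the reads of the 8 arms (y axis, %) taken by each arm, in the 3 control and 3 Na2SeO3 libraries, with the number of family reads under each bar. The miR-130b-5p segment spans 8.33% to 13.8% of the control bars and 32.0% to 35.9% of the Na2SeO3 bars.

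Ratios to single members within a library are free of scaling too. The log2 ratio of miR-130b-5p to miR-130a-3p reads was -2.51 ± 0.42 in the control group and -0.10 ± 0.21 in the Na2SeO3 group (SD, n = 3 each), so that both arms were counted about equally often after Na2SeO3. Against miR-301a-5p the ratio was -0.53 ± 0.51 and 1.18 ± 0.20 (SD, n = 3 each), and no library of one group reached the range of the other in either ratio. Both ratios hold the arm by which the family was chosen, so nothing is read from this gap. The ratio of miR-130b-3p to miR-301a-3p, which compares usual guide strands of comparable level, was -0.12 ± 0.89 and 0.16 ± 0.60, a shift of 0.28 within the spread. Against miR-130a-3p the same arm stood at -4.26 ± 0.92 and -3.07 ± 0.48 (SD, n = 3 each), a shift of 1.19 that was larger than either SD. These groups overlapped, since control library 3 was at -3.31 and Na2SeO3 library 2 at -3.52, and the 3p counts behind them were 3 to 8 reads.

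The arms of each side were also summed, although miR-130a-3p makes up most of the 3p sum and miR-130b-5p, by which the family was chosen, most of the 5p sum in the Na2SeO3 group. The 3p arms added up to 45.6, 49.6 and 66.0 CPM in control libraries 1 to 3 and to 51.0, 55.4 and 52.8 CPM in Na2SeO3 libraries 1 to 3, with means of 53.8 ± 10.8 and 53.0 ± 2.22 CPM (SD, n = 3 each). These ranges overlapped on the TMM scale, while per raw read the log2 ratio of the 3p sums was -1.13. The 5p arms added up to 20.7, 29.0 and 27.2 CPM in the control libraries and to 83.0, 58.1 and 60.5 CPM in the Na2SeO3 libraries, a 2.62-fold difference between the means without overlap. Without miR-130b-5p the other 5p arms summed to 17.1 ± 1.68 and 26.1 ± 8.11 CPM (SD, n = 3 each), ranging from 15.2 to 18.1 and from 19.1 to 34.9 CPM. That was a 1.52-fold difference between the means, also without overlap on the TMM scale, and miR-301a-5p gave most of both sums.

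miRNAs with a related seed were described beside the family. Outside it, 6 rat names of the table hold bases 2 to 7 or 3 to 8 of miR-130a-3p within their own seed, namely miR-148a-3p, miR-148b-3p, miR-152-3p, miR-19a-3p, miR-19b-3p and miR-291b, and 5 of them could be tested. None of the 5 was a DEmiRNA in edgeR's quasi-likelihood test or in DESeq2 (unadjusted p under 0.05 in edgeR for 1 of the 5, miR-148a-3p), beside 16.4% called and 151 of 341 at an unadjusted p under 0.05 among all miRNAs tested, and their median log2 fold change was 0.17, beside 0.08 over all miRNAs tested, with values from -0.39 to 0.30. The 3 most abundant were miR-148a-3p, at 218000 ± 38000 and 166000 ± 34300 CPM in the control and Na2SeO3 groups, miR-152-3p, at 1970 ± 94.0 and 2210 ± 310.0 CPM, and miR-148b-3p, at 1190 ± 109 and 1090 ± 118 CPM (SD, n = 3 each). The 3p arms of the miR-130 and miR-301 family thus stood far below miR-148a-3p in level.

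Profiles most like those of the members were found from the log2 CPM of each miRNA, centred on its mean over the 6 libraries, by the root mean square difference on the log2 scale. For miR-130b-5p the nearest were miR-206-3p at 0.28, miR-493-5p at 0.37 and miR-501-3p at 0.38. For miR-130a-3p they were miR-674-3p at 0.04, miR-676 and miR-17-5p, both at 0.09, and for miR-301a-5p let-7d-3p at 0.07, miR-181d-5p at 0.10 and miR-378a-3p at 0.12. The libraries share depth and group, and what this likeness follows was not tested.

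miRNAs known from particular cell types were summed per library, and the lens, muscle and erythroid sums did not overlap between the groups. Among single miRNAs tested, the groups did not overlap in either direction in 46.3%. The summed level of 4 lens miRNAs (miR-184, miR-204-5p, miR-211-5p and miR-205) was 94700 to 110000 CPM in the control group and 48600 to 60800 CPM in the Na2SeO3 group, so the labelled tissue carried its markers in every library. That of 4 muscle miRNAs was 6370 to 8150 and 12800 to 14200 CPM, and that of 4 erythroid miRNAs 254 to 306 and 404 to 518 CPM. The 2 endothelial miRNAs (20600 to 26100 and 25200 to 30500 CPM), the 5 leukocyte miRNAs (153 to 190 and 122 to 180 CPM) and the 6 neural miRNAs (30100 to 37500 and 37000 to 46800 CPM) overlapped between the groups. No marker of these lists was at 0 over all libraries. Of the markers tested, the numbers called were 1 of 4 lens miRNAs (lower), 1 of 4 muscle, 1 of 3 erythroid and 1 of 6 neural miRNAs (higher), and 0 of 2 endothelial and 0 of 5 leukocyte miRNAs in edgeR's quasi-likelihood test, beside 16.4% of all miRNAs tested. DESeq2 called the same numbers. At an unadjusted p under 0.05 in edgeR there were 3 of 4 lens, 4 of 4 muscle, 1 of 3 erythroid, 3 of 6 neural, 0 of 2 endothelial and 0 of 5 leukocyte miRNAs, beside the 151 of 341 of all miRNAs tested. Their part in the difference of miR-130b-5p was not tested.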

How the data were processed

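Small RNA of 3 control and 3 Na2SeO3 lens capsule samples was sequenced. Per the methods, the authors filtered reads (Cutadapt, Fqtrim), assessed quality (FastQC), mapped to the Ensembl rat genome (miRDeep) and deposited raw read counts per miRNA name, without normalization. The build is not given in the sources used here. Members and lists were chosen with earlier results of these data known.

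Counts were used as deposited (edgeR 4.0.16, limma 3.58.1, R 4.3.3). Names were kept with filterByExpr at a minimum count of 10, scaled with TMM and fitted with the quasi-likelihood model and p-values were adjusted (Benjamini-Hochberg) over 341 miRNAs. A standard error is the log2 fold change over the root of its F. For log2 CPM a prior count of 2 was added. The procedure was tested on simulated data. The lowest chi-square of 2 libraries was 28.0 times its degrees of freedom, so none was a copy. The miRNAs named were all names of the family, those with the same or a related seed, neighbouring genes, the 3 nearest profiles of each member tested, and cell type markers. Alternatives were other scalings, including raw reads as the study lists them, filters, rat names only, DESeq2 1.42.0, the replicate block, pseudocounts and leaving out each library. The ratio of miR-130b-5p to miR-301b-5p was chosen after seeing the data.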

Additional observations from a re-analysis of the deposited data

How the results depend on the processing

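The fold changes and the number of calls were recomputed under 15 alternatives, the 3p sum under 10, and the miR-130b arm balance and the ratio of miR-130b-5p to miR-301b-5p under 7 each. Family shares, other ratios and marker sums were not. The log2 fold change of miR-130b-5p stayed on the same side of the thresholds in all 15 alternatives tried for it, between 1.20 per raw read and 2.52. With raw reads as the library size 182 miRNAs were called in place of 56 (6 higher and 176 lower in the Na2SeO3 group), miR-301a-5p turned to -0.57, miR-130a-3p passed the thresholds at -1.24, and the summed level of the 3p arms moved to -1.13 on the log2 scale from -0.02. These shifts come with that scale, which moves the median of all miRNAs to -1.07. With library totals only, miR-130a-3p turned to 0.0885, and the split of calls was 53 higher and 10 lower in place of 39 and 17. Upper-quartile scaling gave 32 and 22. Leaving out 1 library gave log2 fold changes of 2.02 to 2.52 for miR-130b-5p, -0.20 to -0.02 for miR-130a-3p and 0.35 to 0.73 for miR-301a-5p, a shift in the miR-130b arm balance of 0.72 to 1.51, and 45 to 62 calls.

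Both groups carry the numbers 1 to 3, but the animals differ, and deviations of same-numbered libraries correlated at -0.17, -0.18 and -0.26, so the numbers were not taken to pair them. With the replicate block the log2 fold changes were 2.30 for miR-130b-5p, -0.12 for miR-130a-3p and 0.58 for miR-301a-5p, and 49 miRNAs were called. The ratio of miR-301b-3p to miR-130b-3p was not run, since miR-301b-3p was at 0 throughout and the value would only follow the 0.5 added and the counts of miR-130b-3p. Depth limits the 5 arms of the family that did not enter the fit.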
